A study of Mus musculus with 27 samples.

Results

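Pleiotrophin (Ptn) and midkine (Mdk) are the 2 members of a family of secreted, heparin-binding growth factors, and Ptprz1, Sdc3 and Ncl encode proteins that bind them at the cell surface. These 5 genes, of 55487 in the count table, were followed across the dorsal OS (optic stalk), the ventral OS and the region of retinal ganglion cell (RGC) axons in control and Smarcc1-DCT-cKO mouse embryos at E14. The set was chosen by name around Ptn, which was selected on its own RNA level in these libraries, because its mutant effect was unlike between the regions. The Ptn values by genotype are therefore given as a description with no test. Nothing is read from its differences between control regions either, since these use the same libraries. All 5 genes passed the filter on low counts, which kept 16330 genes. The mutants carried Smarcc1 (Baf155) alleles flanked by loxP sites (Baf155 loxP/loxP) with Dct-Cre and the Z/EG reporter, and the controls were littermates without Dct-Cre. Dct-Cre acts in the pigmented layer of the eye cup and in the dorsal OS, and its activity reaches further ventrally by E14, so the deletion was not limited to the dorsal piece. There were 4 control and 5 mutant embryos, each with 1 library per region, which makes 27 libraries in 6 groups. The labels place 1 control and 3 mutant embryos in batch A and 3 control and 2 mutant embryos in batch B.

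Pleiotrophin and midkine are held in the extracellular matrix by sulphated sugar chains. Pleiotrophin binds the chondroitin sulphate chains and the core of PTPRZ1, a receptor-type tyrosine phosphatase of neural progenitors and glia, and this binding lowers the phosphatase activity, so that substrates such as beta-catenin, beta-adducin and FYN stay phosphorylated. Syndecan-3 (Sdc3) is a neural heparan sulphate proteoglycan that binds pleiotrophin at the surface of axons and growth cones. Nucleolin (Ncl) is an abundant nucleolar protein of which a fraction at the cell surface binds both factors. In the developing nervous system both factors are made by neural progenitors and by glia, and both promote the growth of neurites.

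On mm10 (GRCm38), Ptn lies on chromosome 6 from 36714929 to 36810220 on the minus strand and has 3433 bases of merged exons. Ptprz1 lies on the same chromosome from 22875502 to 23052916 on the plus strand, with 14245 exonic bases. Mdk lies on chromosome 2 from 91929805 to 91932297 (minus strand, 1324 exonic bases), Sdc3 on chromosome 4 from 130792537 to 130826319 (plus strand, 5989 exonic bases) and Ncl on chromosome 1 from 86344719 to 86359400 (minus strand, 10188 exonic bases). Neighbouring genes share 7.73% of the exonic bases of Sdc3 and 2.12% of those of Ncl, and the strand setting of the counting is not stated, so a part of those reads could belong to the neighbours. The 250 bases upstream of the RefSeq start site are shown for Ptn (chr6:36810180-36810429, minus strand), the gene the set was built around, and for Ptprz1 (chr6:22875252-22875501, plus strand), a receptor whose dorsal and ventral controls did not overlap. RefSeq promoters were matched for 4 of the 5 genes. Both are written 5′ to 3′ in the direction of the gene, from RefSeq on GRCm38.p6, and capitals mark the matches to the motifs searched, on either strand.
Ptn: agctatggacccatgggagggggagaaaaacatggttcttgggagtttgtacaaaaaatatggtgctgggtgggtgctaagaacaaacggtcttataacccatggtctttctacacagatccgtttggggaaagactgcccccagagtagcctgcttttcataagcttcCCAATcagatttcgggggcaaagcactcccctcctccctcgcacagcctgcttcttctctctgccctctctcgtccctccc
Ptprz1: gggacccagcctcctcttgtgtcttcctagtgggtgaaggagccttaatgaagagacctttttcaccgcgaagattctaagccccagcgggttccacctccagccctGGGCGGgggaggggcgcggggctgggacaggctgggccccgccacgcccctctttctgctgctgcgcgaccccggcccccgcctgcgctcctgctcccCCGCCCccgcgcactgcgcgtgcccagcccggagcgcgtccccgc
Of the bases upstream of Ptn 52% were G or C, close to the median of 52.4% over 32851 promoters, whereas 71.6% were G or C upstream of Ptprz1. The letters of 6 motifs were searched on both strands: the E-box (CANNTG, in 66.2% of all promoters of this length), an Otx motif (TAATCC, 6.25%), a Sox motif (ACAAT, 27.7%), the CCAAT box (CCAAT, 33.8%), the GC box (GGGCGG, 32.7%) and the TATA box (TATAAA, 12.4%). The window of Ptn held 1 CCAAT box, which starts at -81, and 0 matches to the others. The window of Ptprz1 held 2 GC boxes, which start at -143 and -45 and of which the latter reads on the opposite strand, and 0 matches to the others. The matches did not overlap.

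Total counts ranged from 10.9 to 34.0 M reads per library, at which 1 read equals 0.0294 to 0.0917 CPM (reads scaled to a total of 1 M). Smarcc1, the deleted gene, was at 75.9 to 289 CPM in dorsal controls and 2.26 to 107 CPM in dorsal mutants, where 3 of 5 libraries lay below the lowest control. In the ventral OS and in the axon region all 5 mutant libraries lay below the lowest control of the region. The summed level of 8 genes of RGCs and their axons was 1323 to 2147 CPM in axon controls and 1129 to 2784 CPM in axon mutants, against 4.10 to 967 CPM over the dorsal and ventral libraries. Of these genes Pou4f2, which marks RGC nuclei, had a count in 2 of the 27 libraries, both of ventral mutants, and none in either axon group. Of the other genes on this list only Pou4f1 was without a count in the axon controls, and it had counts in the axon mutants. Isl1 had counts in both axon groups.

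Ptn was abundant in all groups and lowest in the dorsal mutants. Its level in controls 1 to 4 was 1302, 1589, 2364 and 1910 CPM in the dorsal OS, 1645, 2102, 2033 and 2206 CPM in the ventral OS, and 1159, 2159, 2310 and 2328 CPM in the axon region. The ranges of the 3 control regions overlapped. The edgeR fit with the embryo as a block gave log2 differences of -0.20 ± 0.13 for dorsal minus ventral, -0.34 ± 0.13 for dorsal minus axon and -0.14 ± 0.15 for ventral minus axon (SE). The control libraries entered the choice of Ptn, so these differences are a description as well. In mutants 1 to 5 it was 157, 326, 274, 562 and 921 CPM in the dorsal OS. All 5 dorsal mutants lay below the lowest dorsal control, and below every other library of the series. The ventral mutants were at 1558, 1380, 2611, 3296 and 3362 CPM and the axon mutants at 1408, 2530, 2495, 4177 and 4104 CPM, and in both regions the mutant range overlapped the control range, with mutants 3 to 5 of the ventral OS and mutants 2 to 5 of the axon region above every control of their region.

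**Figure D1:**
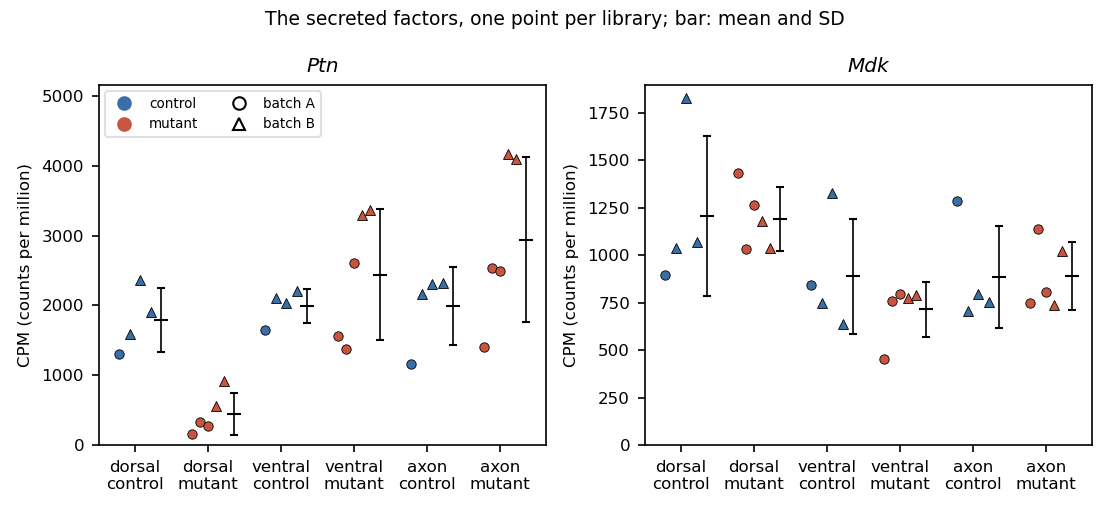
CPM of Ptn (left) and Mdk (right) on linear axes from 0 in the 6 groups, 1 point per library (circles, batch A; triangles, batch B), with the mean and SD of each group at its right. The 5 dorsal mutants have 157 to 921 CPM of Ptn and lie below all dorsal controls (1302 to 2364 CPM), while Mdk in dorsal mutants (1033 to 1432 CPM) lies within the dorsal control range.

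The group means of Ptn ran, from low to high, 448 ± 303 CPM (SD, n = 5) in dorsal mutants, 1791 ± 455 in dorsal controls (n = 4), 1989 ± 559 in axon controls (n = 4), 1996 ± 245 in ventral controls (n = 4), 2441 ± 937 in ventral mutants (n = 5) and 2943 ± 1183 in axon mutants (n = 5). The step from dorsal mutants to dorsal controls was larger than the SD of either group, and each other step in this order was smaller than the larger SD of the 2 groups beside it. Ptn was chosen on these values, so the order and its steps are a description. Per kilobase of exon and over the protein-coding genes with a count, the mean of Ptn ranked 75 of 14678 in dorsal controls, 517 of 14200 in dorsal mutants, and between 54 and 96 in the other 4 groups.

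In the dorsal OS the mutant mean of Ptn was 0.250 times the control mean, and the edgeR fit with batch as a term gave a log2 fold change of -1.76 ± 0.29 (SE, mutants minus controls, 9 libraries). It gave 0.45 ± 0.20 in the ventral OS and 0.88 ± 0.18 in the axon region, so Ptn was lower in mutants in the dorsal OS and higher on average in the other 2 regions. Over all genes tested the median log2 fold change was -0.04, -0.08 and -0.29 in the dorsal, ventral and axon fits. The mutant effect in the dorsal OS minus that in the ventral OS was -2.42 ± 0.27 on the log2 scale (SE), and minus that in the axon region it was -2.68 ± 0.27, from a fit of all 27 libraries with the embryo as a block. The ventral effect minus the axon effect was -0.26 ± 0.26. These differences share the dorsal libraries and, for Ptn, are what the gene was picked for. The SE of the 2 differences that involve the dorsal OS depended on the tool. By limma voom they were -2.33 ± 1.87 and -2.47 ± 1.92, and the dorsal fold change was -1.60 ± 0.93 (SE). The SEs by DESeq2 were 0.29, 0.29 and 0.38 in this order. In the dorsal OS the control and mutant libraries did not overlap for 1 of the 5 genes (background 2.92% of 16145 genes). That gene is Ptn, which was chosen on these libraries, so nothing is read from the count. The groups did not overlap for 0 of 5 genes in the ventral OS (background 1.23%) or in the axon region (background 1.28%). A lower level in a dissected piece can come from fewer cells that express the gene or from less RNA per cell, which cannot be told apart in these libraries.

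Ptn also differed between the batches. In controls the batch A library was the lowest of the 4 in each region. Within batch A the dorsal level was 1302 CPM in the 1 control and 157 to 326 CPM in the 3 mutants, and within batch B it was 1589 to 2364 CPM in the 3 controls and 562 to 921 CPM in the 2 mutants. Dorsal mutants thus lay below dorsal controls within each batch. The log2 ratio of the mean CPM + 1, mutants over controls, was -2.36 in batch A and -1.40 in batch B in the dorsal OS, 0.17 and 0.66 in the ventral OS, and 0.89 and 0.87 in the axon region.

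Each embryo gave 1 library per region, so Ptn was also compared between libraries of the same number within a genotype, which were taken as those of 1 embryo although the labels do not state it. In controls 1 to 4 the dorsal level was 0.792, 0.756, 1.16 and 0.866 times the ventral level. In mutants 1 to 5 it was 0.101, 0.236, 0.105, 0.171 and 0.274 times the ventral level, below every control. The ratio of the ventral to the axon level was 0.880 to 1.42 in controls and 0.546 to 1.11 in mutants, and these ranges overlapped.

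**Figure D2:**
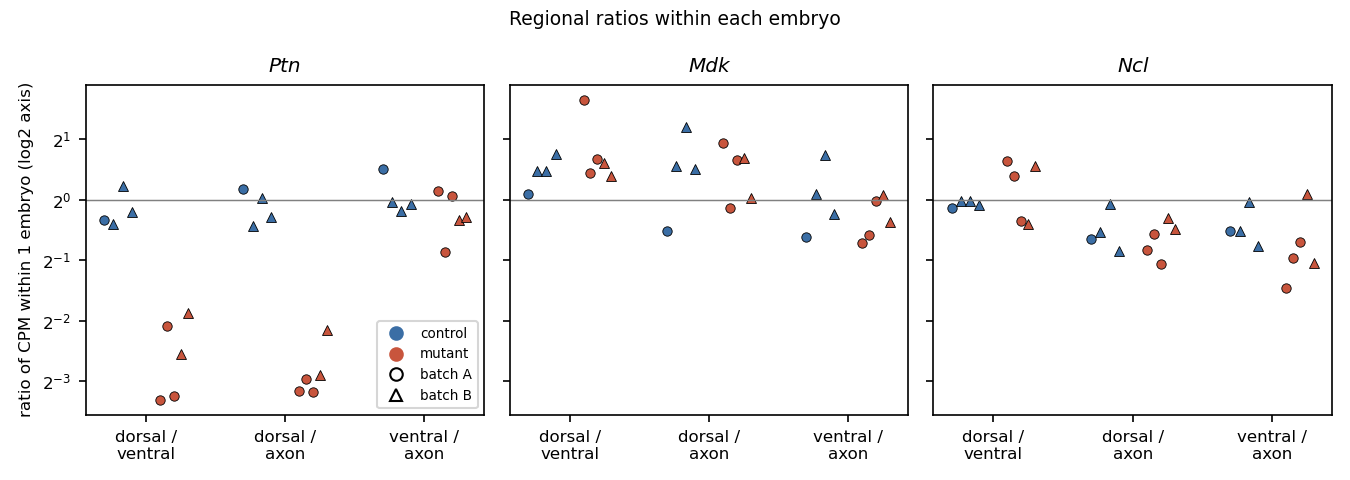
Ratio of CPM between regions within 1 embryo for Ptn, Mdk and Ncl on a log2 axis, 1 point per embryo (blue, controls; red, mutants; circles, batch A; triangles, batch B), with a line at a ratio of 1. For Ptn the dorsal to ventral ratio is 0.756 to 1.16 in controls and 0.101 to 0.274 in mutants, and for Mdk all 9 dorsal to ventral ratios lie above 1.

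The means of marker genes of several cell types also differed between dorsal controls and dorsal mutants, in both directions. The summed level of 9 genes of astrocyte progenitors and OS was 2497 to 3509 CPM in dorsal controls and 892 to 1719 CPM in dorsal mutants, with a lower mutant mean for 8 of the 9. The sum of 6 pigment cell genes was 39.5 to 4691 CPM in dorsal controls and 2882 to 11499 CPM in dorsal mutants, with a higher mutant mean for all 6. The sum of 10 mesenchyme genes was 1160 to 10185 CPM in dorsal controls and 55.6 to 373 CPM in dorsal mutants, with a lower mutant mean for all 10. All markers of these 3 lists had a count in both dorsal groups, and their part in the Ptn result was not tested. Among the 4 dorsal controls the pigment sum was 4691, 1275, 39.5 and 4669 CPM in the order of their numbers, where Ptn was 1302, 1589, 2364 and 1910 CPM. In the ventral OS, where the mean of Ptn was higher in mutants, the astrocyte and OS genes summed to 3358 to 5072 CPM in controls and 2457 to 4217 CPM in mutants. There the mean of the mesenchyme sum was also lower in mutants (410 CPM in controls and 106 CPM in mutants, with a lower mean for all 10 genes), and that of the pigment sum higher (646 and 1815 CPM).

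**Figure D3:**
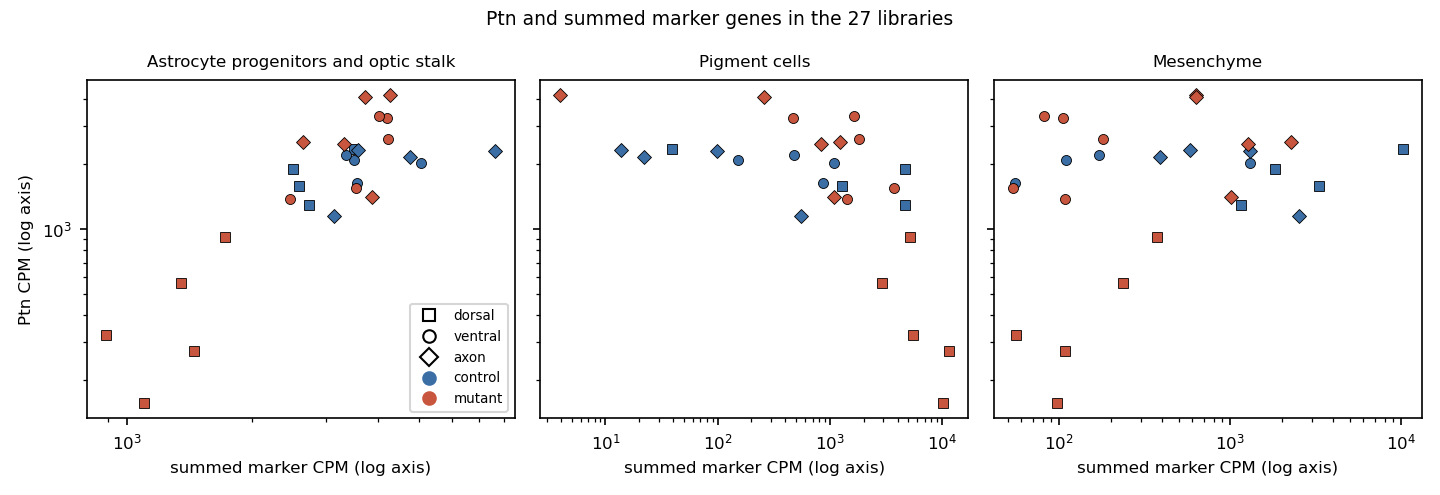
Ptn CPM against the summed CPM of marker genes of astrocyte progenitors and OS, pigment cells and mesenchyme in the 27 libraries, on log axes (squares, dorsal; circles, ventral; diamonds, axon; blue, controls; red, mutants). The 5 dorsal mutants lie at the lowest Ptn levels (157 to 921 CPM) and at the lowest sums of the astrocyte and OS genes (892 to 1719 CPM), and their pigment sums span 2882 to 11499 CPM.

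Midkine, the other factor of the family, did not follow Ptn. The dorsal controls 1 to 4 had 893, 1037, 1831 and 1072 CPM of Mdk and the dorsal mutants 1 to 5 had 1432, 1033, 1265, 1180 and 1041 CPM, so that the mutants lay within the control range. The log2 fold change was 0.04 ± 0.25 (SE, adjusted p = 1.00 by edgeR's quasi-likelihood test), and its sign turned between batch A (log2 ratio 0.48) and batch B (-0.24). The ventral controls had 841, 749, 1327 and 638 CPM, the ventral mutants 456, 760, 794, 773 and 792 CPM, and the difference was -0.28 ± 0.27 (SE, adjusted p = 0.999, edgeR). In the axon region 4 controls at 1284, 705, 796 and 755 CPM and 5 mutants at 749, 1139, 806, 737 and 1022 CPM differed by -0.07 ± 0.23 (SE, adjusted p = 1.00, edgeR). The mutant effect on Mdk in the dorsal OS minus that in the ventral OS was 0.32 ± 0.30 (adjusted p = 1.00), and minus that in the axon region 0.06 ± 0.31 (adjusted p = 1.00, edgeR).

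In controls Mdk was 1.36 times as high on average in the dorsal as in the ventral OS, and the dorsal library was the higher in each of the 4 controls, with ratios of 1.06 to 1.68. The log2 difference was 0.43 ± 0.15 (SE, unadjusted p = 0.0229, adjusted p = 1.00, edgeR), so it did not pass the threshold over all genes. The same direction was seen in all 5 mutants, with ratios of 1.31 to 3.14. The difference from the axon region was 0.24 ± 0.28 (SE, adjusted p = 0.916, edgeR).

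Per kilobase of exon, the scale on which genes can be set beside each other, Mdk had 913 ± 319 CPM per kb in dorsal controls (SD, n = 4) and Ptn 522 ± 133. In dorsal mutants Mdk had 899 ± 126 (SD, n = 5) and Ptn 131 ± 88.2. Ptn thus made up 33.2% to 40.7% of the per-kilobase total of both factors in dorsal controls and 4.06%, 10.8%, 7.72%, 15.5% and 25.5% in dorsal mutants 1 to 5. The share was 37.1% to 57.1% in ventral controls, 41.2% to 62.2% in ventral mutants, 25.8% to 54.3% in axon controls and 42.0% to 68.6% in axon mutants. The 5 dorsal mutants had the lowest shares of the 27 libraries, and since Ptn was chosen on these libraries this share is a description as well.

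Ptprz1 was high in the ventral OS and low in the dorsal OS of controls. The dorsal controls had 0.499, 35.8, 0 and 26.0 CPM (12, 577, 0 and 386 reads), and the ventral controls 140, 162, 249 and 182 CPM, a mean 11.8 times as high with no overlap. Without control 2 the ventral mean was 21.6 times the dorsal mean, and without control 3 it was 7.78 times. Of the 5 genes this was the only 1 without overlap between dorsal and ventral controls, against 2.71% of 16118 genes tested. The edgeR fit with the embryo as a block gave a log2 difference of -5.77 ± 2.25 (SE, dorsal minus ventral, unadjusted p = 0.0386, adjusted p = 1.00), and DESeq2 gave an adjusted p of 0.00304 for the same contrast. The axon controls were spread over the whole range, with 0, 200, 224 and 43.2 CPM, and their mean of 117 ± 112 CPM (SD, n = 4) overlapped both other regions.

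The mutant libraries of Ptprz1 overlapped the controls in every region. The dorsal mutants had 2.94, 85.1, 0, 87.2 and 37.9 CPM, with 3 of the 5 above the highest dorsal control, and a log2 fold change of 2.82 ± 2.61 (SE, adjusted p = 1.00, edgeR). The ventral mutants had 58.7, 83.2, 128, 324 and 143 CPM and the axon mutants 130, 91.3, 1.90, 142 and 65.1 CPM. The fold changes were -0.14 ± 0.38 and 0.81 ± 2.18 (SE, adjusted p = 0.999 and 1.00, edgeR), and in the axon region the fitted sign went against the means, which were 86.0 CPM in mutants and 117 CPM in controls. The dorsal mutant effect minus the ventral and the axon effects was 2.14 ± 2.92 and 1.49 ± 2.62 (adjusted p = 1.00 for both, edgeR). With SEs over 2 on the log2 scale, differences of several fold could not be resolved outside the ventral OS.

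**Figure D4:**
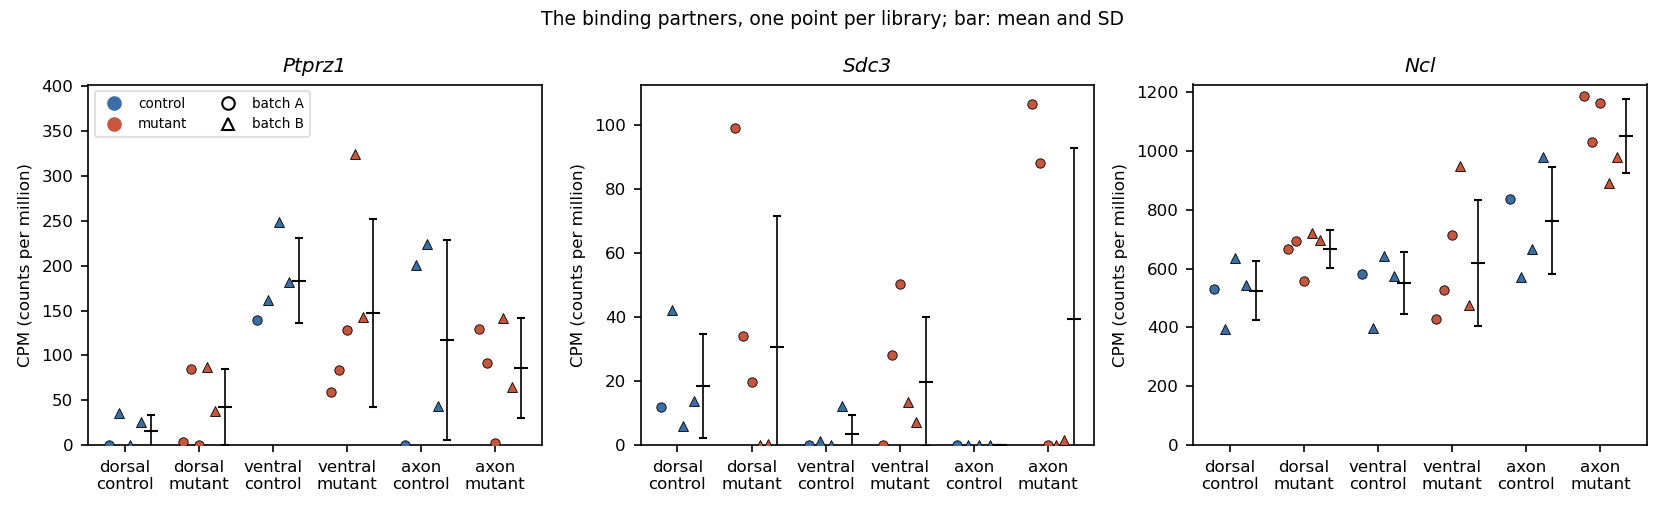
CPM of Ptprz1, Sdc3 and Ncl on linear axes from 0 in the 6 groups, 1 point per library (circles, batch A; triangles, batch B), with the mean and SD of each group at its right, the SD bar being clipped at 0. The 4 ventral controls have 140 to 249 CPM of Ptprz1 against 0 to 35.8 CPM in dorsal controls, Sdc3 is at 0 in all 4 axon controls, and Ncl is highest in the axon mutants (890 to 1187 CPM).

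Sdc3 had the fewest libraries with a count among the 5 genes and was at 0 in 10 of the 27. The dorsal controls had 12.0, 42.3, 5.84 and 13.6 CPM, the ventral controls 0, 1.14, 0 and 12.2 CPM, and all 4 axon controls 0 reads. A floor of 3 reads per library, which covers counting error only, equals 0.162 CPM on average in the axon controls. The dorsal control mean of 18.4 CPM was 114-fold higher than this floor. Without control 2, the highest, the dorsal mean was 10.5 CPM and 65.1-fold higher than the floor. Sdc3 was the only 1 of the 5 genes whose dorsal and axon controls did not overlap, against 4.41% of 15899 genes. The edgeR test of this difference gave an unadjusted p of 0.0492 and an adjusted p of 0.800, while DESeq2 gave an adjusted p of 4.1e-05 and limma voom 0.0239. Between ventral and axon controls 0 of 5 genes were without overlap (background 3.8%).

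In mutants Sdc3 was scattered from 0 to 107 CPM, with a library at 0 in each region. The dorsal mutants had 99.0, 34.0, 19.7, 0 and 0.399 CPM, the ventral mutants 0, 28.2, 50.4, 13.5 and 7.04 CPM and the axon mutants 107, 88.0, 0, 0 and 1.60 CPM. In the dorsal OS the 3 highest mutants were those of batch A (19.7 to 99.0 CPM, against 12.0 CPM in the batch A control) and both batch B mutants lay below all batch B controls, so the difference turned between the batches. It had a log2 fold change of -5.06 ± 3.56 (SE, adjusted p = 0.984, edgeR), though the mutant mean of 30.6 CPM was above the control mean. DESeq2 called it lower in mutants (log2 fold change -5.21, adjusted p = 0.0150) and limma voom gave 0.18 (adjusted p = 0.988). In the ventral OS and the axon region the edgeR adjusted p was 0.999 and 0.880.

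Ncl had counts in all 27 libraries. It ranged from 394 to 635 CPM in dorsal controls and 560 to 720 CPM in dorsal mutants, from 399 to 644 CPM in ventral controls and 429 to 951 CPM in ventral mutants, and from 572 to 982 CPM in axon controls and 890 to 1187 CPM in axon mutants. The mutant mean was 1.27, 1.13 and 1.38 times the control mean in the dorsal, ventral and axon regions, and the groups overlapped in each. The log2 fold changes were 0.39 ± 0.21, 0.20 ± 0.27 and 0.38 ± 0.20 (SE, edgeR adjusted p = 0.938, 0.999 and 0.880). In controls the axon region had more Ncl than the dorsal OS in 4 of 4 embryos, with dorsal to axon ratios of 0.554 to 0.954, and the log2 difference of -0.73 ± 0.19 (SE) had an unadjusted p of 0.00718 and an adjusted p of 0.758 (edgeR). The ventral minus axon difference was -0.66 ± 0.19 (SE, adjusted p = 0.902, edgeR), and both stand beside a median of 0.48 and 0.53 over all genes tested, so that the typical gene had the opposite sign.

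With edgeR, 0 of the 4 genes other than Ptn were called for genotype in the dorsal OS (background 0.0124% of 16145 genes, 2 genes), in the ventral OS (background 0% of 16139) or in the axon region (background 0% of 14977). At an unadjusted p under 0.05 the counts were 0, 0 and 1 (Sdc3 in the axon region), where 5.35%, 3.19% and 3.55% of all genes had such a p. DESeq2 called 1 (Sdc3), 0 and 0 against a background of 3.3%, 2.12% and 8.23%, and limma voom 0 in each against 0.322%, 0.031% and 0.327%.

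Between the control regions edgeR called 0 of the 5 genes for dorsal and ventral (background 0% of 16118), dorsal and axon (background 0.0126% of 15899) or ventral and axon (background 0% of 15839). In this order the unadjusted p was under 0.05 for 2 (Mdk and Ptprz1), 3 (Ptn, Sdc3 and Ncl) and 1 (Ncl) of the 5, and for 2.54%, 3.93% and 2.64% of all genes. Without Ptn, which was chosen on these libraries, the counts were 2, 2 and 1 of 4. Calls by DESeq2 were 2 (Ptprz1 and Sdc3), 1 (Sdc3) and 0, with no adjusted p for Sdc3 in the last, against a background of 3.95%, 6.68% and 6.31%. Those by limma voom were 0, 1 (Sdc3) and 0 against 0.0869%, 0.943% and 0.278%.

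For the difference of the genotype effect, edgeR called 0 of the 4 between dorsal and ventral (background 0.00612% of 16330), dorsal and axon (0.0122%) or ventral and axon (0%), where the background includes Ptn itself. The unadjusted p was under 0.05 for 0, 1 (Sdc3) and 0 of the 4, and for 2.29%, 4.95% and 3.9% of all genes. By DESeq2 there was a call for Sdc3 in each of these 3 differences, against a background of 5.46%, 10.9% and 9.68%, and limma voom called 0 against 0.0306%, 0.398% and 0.135%.

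The neighbouring genes of the pathway were counted on 6 lists with 51 genes, of which 47 passed the filter. edgeR called 0 of them in any of the 9 comparisons. In the dorsal, ventral and axon regions 6 of 47, 1 of 47 and 2 of 45 had an unadjusted p under 0.05 for genotype, against 5.35%, 3.19% and 3.55% of all genes tested. Their median log2 fold change was -0.11 against -0.04 over all genes in the dorsal OS, -0.37 against -0.08 in the ventral OS and -0.39 against -0.29 in the axon region. DESeq2 called 1 (Chst3), 0 and 4 (Lrp2, Cntn1, Tnc and Xylt1) of them in the 3 regions, against 3.3%, 2.12% and 8.23% of all genes, and limma voom 1 (Chst3), 0 and 0. Between dorsal and ventral, dorsal and axon, and ventral and axon controls, edgeR gave 1 (Lrp1), 0 and 1 (Notch2) of them such an unadjusted p. DESeq2 called 1 (Cntn1), 6 and 4 (Add2, Ndst2, Chst3 and Chst15) there, against 3.95%, 6.68% and 6.31% of all genes. For the difference of the genotype effect, in the same order, the counts were 0, 4 and 3 by unadjusted p, and 1 (Xylt1), 6 and 4 (Lrp2, Nrp1, Ctnnb1 and Xylt2) by DESeq2, against 5.46%, 10.9% and 9.68% of all genes. limma voom called 0 in these 6 comparisons. Genes named here for a call by DESeq2 or for an unadjusted p were chosen after their values were seen.

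Among the other receptors, 3 of the 11 tested had a dorsal fold change above 0 and 8 below. The ventral OS had the same numbers, 3 above and 8 below, and the axon region had 5 above and 6 below. Ptprs, a phosphatase receptor for sulphated chains, had a mean of 301 ± 115 CPM in dorsal controls (SD, n = 4) and 140 ± 48.9 in dorsal mutants (SD, n = 5). Its log2 fold change was -0.92 ± 0.33 (SE, adjusted p = 0.918, edgeR). Itgb1, the integrin beta 1 chain, had 245 ± 155 and 134 ± 28.0 CPM, and Notch2, a receptor that midkine can bind, 142 ± 80.4 and 126 ± 41.3 CPM, both with an adjusted p of about 1 (0.996 and 1.00, edgeR). The 3 other syndecans were each present in all dorsal libraries. The dorsal means were 84.5 ± 60.5 and 72.6 ± 33.3 CPM for Sdc1, 71.9 ± 24.4 and 51.0 ± 17.1 for Sdc2, and 38.1 ± 54.3 and 72.4 ± 31.0 for Sdc4 (controls, then mutants, SD).

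The chondroitin sulphate proteoglycans mostly had fold changes below 0 in the mutants of all 3 regions. In the dorsal OS 5 of the 5 tested had a fold change below 0, with a median of -1.78, and in the ventral OS 4 of 5, with a median of -1.81. In the axon region it was 3 of the 4 tested, with a median of -2.28, and 0 were called in any region. These signs and medians rest in part on genes with few reads. Cspg4 and Bcan had means of 1.26 and 2.04 CPM over the 27 libraries, and Bcan and Ncan had a count in 5 and 12 of them. The dorsal fold changes of Cspg4, Bcan and Ncan were -0.77 ± 3.28, -8.52 ± 8.20 and -0.11 ± 4.28 (SE, edgeR). No trend of the family is read from these counts. Vcan (versican) had 231 ± 268 CPM in dorsal controls and 25.4 ± 38.6 in dorsal mutants, Cspg5 (neuroglycan C) 78.4 ± 58.2 and 21.1 ± 13.0, and Ncan (neurocan) 28.7 ± 55.7 and 7.82 ± 8.76 (SD, n = 4 and 5). The controls' SDs were larger than the differences for all 3, and the adjusted p was 0.953 for Vcan and 0.938 for Cspg5 (edgeR). Versican is also made by mesenchyme, whose markers had higher means in dorsal controls as given above, and their part in these values was not tested.

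Of the PTPRZ1 substrates and partners, 6 of the 9 tested had a fold change below 0 in the dorsal OS, and also 6 of the 9 in the ventral OS. In the axon region 7 of the 9 had one above 0. Ctnnb1, which encodes beta-catenin, had 496 ± 127 CPM in dorsal controls and 442 ± 127 in dorsal mutants, and 455 ± 167 and 658 ± 114 in the axon region (SD). Add1 (alpha-adducin) had 210 ± 75.4 and 88.7 ± 26.0 CPM in the dorsal OS, a log2 fold change of -1.19 ± 0.46 (SE, adjusted p = 0.918, edgeR), and Fyn 125 ± 131 and 61.7 ± 22.1 CPM. Of the cell adhesion molecules that bind PTPRZ1, Ncam1 had 101 ± 70.3 and 146 ± 57.3 CPM, Nrcam 41.1 ± 42.3 and 95.7 ± 54.0 CPM and Cntn1 (contactin-1) 22.5 ± 26.1 and 22.3 ± 19.7 CPM in the dorsal OS. The adjusted p was 0.918 for Add1 and 1.00 for the other 5 genes in the dorsal OS (edgeR).

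Among the 14 enzymes that build or sulphate the chains, the 3 most abundant had control and mutant means that differed by less than the larger SD in the dorsal OS. Hs2st1, a heparan sulphate sulphotransferase, had 65.1 ± 30.0 and 59.6 ± 31.4 CPM, Chsy1 (chondroitin synthase) 101 ± 38.7 and 77.7 ± 15.9 CPM, and Ext2 (heparan sulphate polymerase) 64.9 ± 64.9 and 71.7 ± 35.8 CPM. Chst3, a chondroitin 6-sulphotransferase, is named after its values were seen. It had 39.8, 58.3, 75.7 and 4.64 CPM in dorsal controls and 0, 0.0596, 0, 0 and 0 CPM in dorsal mutants, at most 1 read. The control mean was 208-fold higher than the mutants' floor of 3 reads, which covers counting error only. The adjusted p of the dorsal difference was 0.261 by edgeR, 1.1e-09 by DESeq2 and 0.00183 by limma voom. In the ventral OS the controls had 3.32 to 64.7 CPM and the mutants 0 to 3.67 CPM, and the groups overlapped.

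Over the 27 libraries and 7295 genes with a mean of at least 20 CPM, the pattern most like that of Ptn was that of Zic1, which encodes a zinc finger transcription factor, with a Pearson r of 0.86 for log2(CPM + 1). It was followed by Cpne8, a copine (0.86), Efcab2 (0.82), Ptgfrn (0.80) and Gm5089, annotated as an antisense RNA (0.80), whose reads cannot be told from those of its partner without the strand. The most opposite patterns were those of Slc38a8, an amino acid transporter (-0.83), Ttr, which encodes the carrier protein transthyretin (-0.81), and Col8a1, a collagen chain (-0.79). Zic1 had 258 ± 13.3 CPM in dorsal controls and 24.6 ± 20.1 in dorsal mutants, and 142 to 196 CPM on average in the other groups. Slc38a8 was at 128 to 504 CPM in dorsal mutants and at 0 to 18.7 CPM in dorsal controls. Of the other members Ptprz1 had an r of 0.42 with Ptn, Ncl 0.17 and Mdk -0.41. These correlations are a description of 27 libraries that share embryos and batches. By Spearman's rho 2 of the 5 highest and 1 of the 3 lowest genes were shared with these lists, and by the 6 group means 0 and 0.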

How the data were processed

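The dorsal OS, ventral OS and RGC axon region were taken by laser capture from frozen sections of E14 embryos, and cDNA was made by whole-transcript amplification and sequenced as single-end reads. The authors aligned the reads to mm10 with STAR and counted them per gene with HTSeq in the Seq2Science pipeline, and deposited 1 table of raw counts with 27 libraries. Salmon is also named in the submitters' processing notes and was not used here. Versions, annotation release and strand setting are not given in the sources used here, and the protocol has no molecular identifiers, so amplified copies count as reads and floors cover counting error only. Totals were 10.9 to 34.0 M reads.

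Gene names, positions and exon lengths came from GENCODE M21, which matched 55141 of 55487 identifiers (the other 346 held 0.0148% of the counts). The filter kept 16330 genes, those whose count exceeded 10 in 3 or more libraries. Levels are CPM on the total count. Tests used edgeR 4.0.16 in R 4.3.3 (quasi-likelihood, TMM, robust): genotype within a region with batch as a term, regions in controls with the embryo as a block, and the region by genotype interaction with the embryo as a block. The SE given for an edgeR fit is the absolute log2 fold change divided by the square root of the F statistic of its test. Calls required a p under 0.05 after Benjamini-Hochberg adjustment over all genes tested, and an absolute log2 fold change over 0.58. Alternatives were RLE scaling, other filters, DESeq2 1.42.0, limma 3.58.1 (voom), batch B alone for genotype, fits with and without the replicate block, and leaving out each replicate (1 library in the genotype fits, all libraries of an embryo in the others). The fits were also run on simulated data in which only abundant genes were changed and no embryo or batch effect was drawn. That run does not cover genes without reads in some libraries, such as Ptprz1 and Sdc3. No 2 libraries held identical values, and p-values measure the spread between embryos as the labels number them.

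The members, gene lists and tests were chosen with earlier results of these data known. Named genes were the 5 members, up to 3 genes per pathway list with the highest mean CPM (or called in any of the edgeR fits above, of which there were 0), and the 5 genes with the highest and 3 with the lowest correlation with Ptn among genes with a mean of at least 20 CPM. The libraries of 1 number within a genotype were taken as 1 embryo from the number of embryos that the methods give. Correlations of residuals had a median of 0.033 over 27 pairs of libraries of the same embryo, and -0.013 over 12 pairs of the same number and other genotype.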

Additional observations from a re-analysis of the deposited data

Results flagged for a closer look

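In 4 of the 29 groups of member values tested, 1 library lay further from the others than the 95% critical value of Dixon's test allows, where chance gives about 1 in 20. Ptn was at 1159 CPM in axon control 1 and at 2159 to 2328 CPM in the other 3 axon controls, a gap of 0.855 of the group's range. Mdk was at 1284 CPM in the same library and at 705 to 796 CPM in the other 3 (0.843 of the range). This is the 1 control embryo of batch A, in which Ptprz1 had no reads in the axon region. Sdc3 had no reads there either, as in every axon control. Mdk was at 455.9 CPM in ventral mutant 1 and at 760 to 794 CPM in the other 4 (0.900 of the range). Sdc3 was at 12.18 CPM in ventral control 4 and at 0 to 1.14 CPM in the other 3 (0.906 of the range).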

How the results depend on the processing

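Ptn kept its direction in the dorsal OS under every alternative, with log2 fold changes of -2.06 to -1.38 when 1 library was left out (mean ratio 0.184 to 0.291) and -2.52 with the replicate block, and the genotype fits with that block called 0 of the other 4 members and 0 pathway genes. In the ventral OS the fold change of Ptn went from 0.45 to 0.29 without the batch term and to 0.07 with the replicate block. In the axon region it went from 0.88 to 0.58 and 0.36, so the size of both rises depended on the model. The labels do not state whether the numbers pair controls with mutants. Of 12 pairs of the same number 0 had a correlation of residuals above 0.1. Only 1 of 27 pairs of libraries taken as the same embryo had one, so these correlations cannot decide the pairing. Without the replicate block the regional fits called 0 of the 5 members and the interaction fits 0 of the 4 other than Ptn, with 0 pathway genes in either, while over all genes they called 0, 11 and 5 between control regions and 1, 4 and 1 for the genotype effect, in the order given below. The number of genes called depended on the tool: edgeR called 2, 0 and 0 for genotype (dorsal, ventral, axon), DESeq2 532, 342 and 1233, and limma voom 52, 5 and 49. Between control regions (dorsal and ventral, dorsal and axon, ventral and axon) the counts were 0, 2 and 0 by edgeR, 636, 1062 and 999 by DESeq2 and 14, 150 and 44 by voom, and for the difference of the genotype effect 1, 2 and 0, 892, 1785 and 1580, and 5, 65 and 22. Leaving out 1 library gave 0 to 2 calls in the dorsal genotype fit, and leaving out 1 embryo gave 0 to 1 between dorsal and axon controls, and 2 to 3 and 0 to 1 for the genotype effect in dorsal against axon and ventral against axon. The cause was not tested.

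Of the members other than Ptn, DESeq2 called 1 for genotype in the dorsal OS, and 1 in each of the 3 differences of the genotype effect. Of all 5 it called 2 between dorsal and ventral controls and 1 between dorsal and axon controls, where voom also called 1. Of the pathway genes, 1 (Chst3) was called in the dorsal OS by DESeq2, by voom and without the filter, and DESeq2 called 4 in the axon region, 1, 6 and 4 between control regions, and 1, 6 and 4 for the difference of the genotype effect.

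The sign of several uncalled fold changes turned. In the dorsal OS Mdk was -0.0098 with RLE scaling and with DESeq2, -0.235 in batch B, and -0.22 to 0.28 with 1 library left out, and Sdc3 was 0.18 with voom, 0.77 without the batch term and 0.34 with the replicate block. In the ventral OS Ptprz1 was 0.20 in batch B and -0.56 to 0.19 with 1 library left out, and Ncl -0.12 to 0.35. In the axon region Mdk was 0.007 without the batch term, 0.25 in batch B and -0.32 to 0.21 with 1 library left out, and Ptprz1 -0.47, -0.62 and -0.65 to 5.15. Mdk in ventral minus axon controls was -0.44 to 0.0115 with 1 embryo left out. For the genotype effect in dorsal minus axon, Mdk was -0.033 with RLE scaling and with DESeq2, -0.36 with voom, -0.017 without the replicate block and -0.29 to 0.31 with 1 embryo left out, Ptprz1 -0.004 to 2.92 and Ncl -0.18 to 0.0723. For ventral minus axon Ptprz1 was -2.45 to 0.94. Of all alternatives, 1061 kept direction and side of the threshold, 71 moved, most of them counts of genes called, 8 passed the threshold anew and 34 reversed. Without 1 control embryo the ventral over dorsal ratio of Ptprz1 was 7.78 to 21.6, with a log2 difference of -7.88 to -3.90. The dorsal mean of Sdc3 was then 65.1-fold to 145-fold higher than the floor of the axon controls. Sdc3 and Ptprz1, with libraries at 0, have the least depth behind their values.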
